A study of Caenorhabditis elegans with 6 samples.

Results

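Worms in salty surroundings keep their water by building up small solutes inside their cells, above all glycerol. The 8 genes described here act in or around that response in Caenorhabditis elegans: gpdh-1 and gpdh-2, hmit-1.1, tps-1 and tps-2, and osm-8, osm-11 and osr-1. They were chosen by gene name from the deposited table, 8 of 46904 rows, of which 22389 carry read counts. The choice was made with earlier results of these data known. All 8 carry counts, and all 8 passed the filter on low counts and were among the 13778 genes tested.

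Polyadenylated RNA of adult worms grown on solid medium was sequenced in 6 libraries of 2 groups. The first group is a CRISPR deletion of linc-4, a long intergenic non-coding RNA gene, in the N2 background (linc-4, 3 libraries). The second is N2, the laboratory wild type (wild type, 3 libraries). No osmotic treatment is named for either group, and the sources used here give neither the extent of the deletion nor the number of deletion lines.

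Glycerol is made from dihydroxyacetone phosphate, an intermediate of glycolysis. Glycerol-3-phosphate dehydrogenase reduces it to glycerol-3-phosphate, and a phosphatase then releases glycerol. In C. elegans, high salt is known to induce gpdh-1 in the intestine and epidermis, and loss of some secreted or cuticle proteins, OSM-8 and OSM-11 among them, turns gpdh-1 on without salt. Trehalose, a disaccharide made by trehalose-6-phosphate synthases, and inositol, taken up by proton-coupled transporters, are further protective solutes.

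Total counts ran from 6560089 to 12790323 in linc-4 libraries and from 3736372 to 7428665 in wild type libraries. The deleted gene was checked first: linc-4 had 0.288 ± 0.307 CPM in linc-4 worms and 48.1 ± 5.32 CPM in wild type (SD, n = 3 each; CPM is the read count brought to 1 common library size after scaling for composition). Markers of other tissues also differed between the groups. Of 18 germline and oocyte markers 15 were lower in linc-4 (limma-voom, adjusted p below 0.05), and their summed level was 2116 to 2263 CPM in linc-4 and 3166 to 3647 CPM in wild type. Of 11 tested sperm markers 7 were higher, with sums of 562 to 661 CPM in linc-4 and 263 to 368 CPM in wild type. Of 10 body wall muscle markers 3 were higher, with sums of 2567 to 2871 CPM in linc-4 and 1884 to 2175 CPM in wild type. Over all tested genes 11.5% were higher and 7.18% lower. limma-voom made no call among 12 neuron markers (469 to 473 CPM in linc-4, 442 to 514 CPM in wild type; unadjusted p under 0.05 in 0, limma-trend calls 0) or 7 tested markers of the excretory canal, the osmoregulatory organ (74.9 to 85.3 CPM in linc-4, 76.3 to 81.5 CPM in wild type; unadjusted p under 0.05 in 1, higher; limma-trend called 1 higher). No listed marker with counts was at 0 reads throughout.

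gpdh-1, which encodes the salt-inducible glycerol-3-phosphate dehydrogenase, was the member that rose. It lies on chromosome I (14075836 to 14078211, + strand; build WBcel235; WBGene00009824) and has 4 exons. Its level was 8.32, 7.28 and 8.83 CPM in linc-4 1 to 3, against 2.57, 1.37 and 2.53 CPM in wild type 1 to 3. Every linc-4 library stood above every wild type library. The log2 fold change was 1.98 (SE 0.30, 95% interval 1.33 to 2.62), a 3.94-fold rise with a limma-voom adjusted p = 0.0010 over all tested genes. Of the 13778 tested genes, 109 had a larger log2 fold change.

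The wild type level of gpdh-1 rested on few reads, 10, 9 and 14, while linc-4 libraries held 65, 49 and 116. Wild type 2 lay below the level set by the filter on low counts, and every linc-4 library lay above it. gpdh-1 thus did not meet the filter through wild type alone. With no filter its limma-voom adjusted p was 0.00058. Scaled for depth, the ratio of summed reads, 230 in linc-4 against 33 in wild type, was 4.03 with an exact 95% counting interval of 2.79 to 5.99. This interval covers counting error only. The authors' deposited table gives gpdh-1 a log2 fold change of 1.95 (SE 0.38) and an adjusted p of 2.3e-05. gadr-6, on the opposite strand, shares 73 exonic bases with gpdh-1. Without known strand, reads from the shared stretch cannot be told apart. gadr-6 averaged 4.34 ± 0.768 CPM in linc-4 and 5.72 ± 0.221 CPM in wild type (SD, n = 3 each) and did not pass (limma-voom adjusted p = 0.27).

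**Figure D1:**
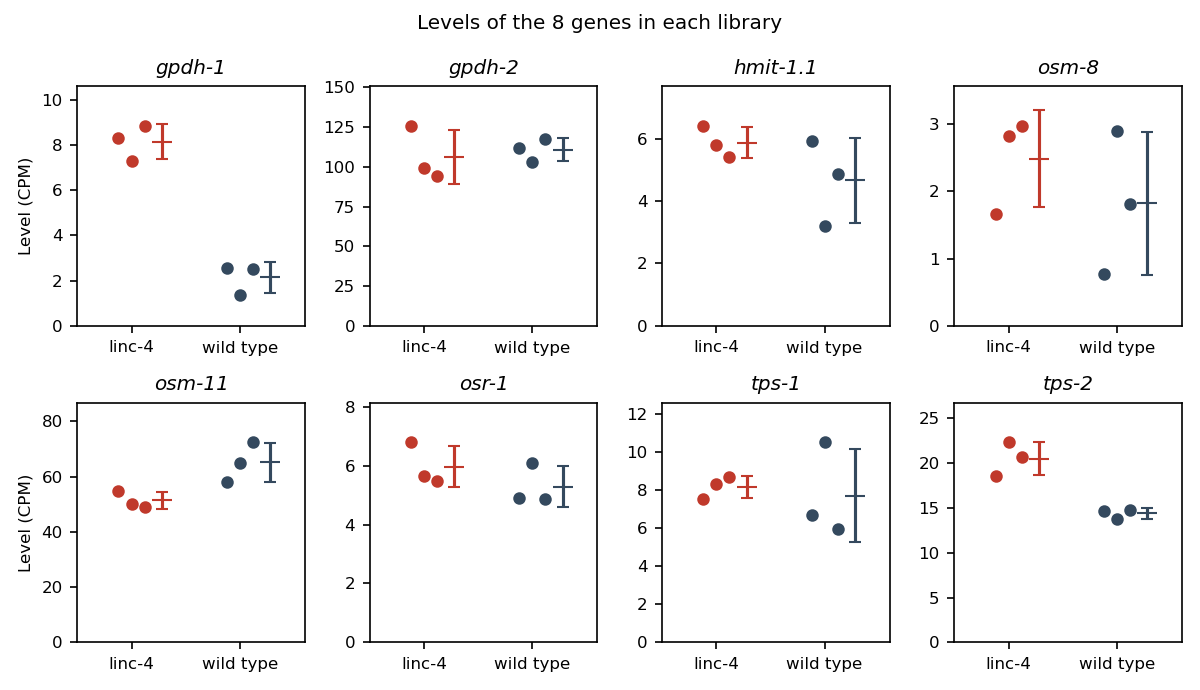
Level in CPM (vertical axes, from 0, a separate scale for each gene) of the 8 genes in 3 linc-4 libraries (left) and 3 wild type libraries (right); points are libraries, and the bar beside them is the mean ± SD. The groups do not overlap for gpdh-1, tps-2 and osm-11, and gpdh-1 lies at 7.28 to 8.83 CPM in linc-4 against 1.37 to 2.57 CPM in wild type.

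In RNA of whole worms, fewer cells of a type and less RNA per cell cannot be told apart, and the same holds for more. gpdh-1 is known from the intestine and epidermis. Of 11 tested intestine markers 2 were higher and 2 lower by limma-voom, beside 11.5% and 7.18% of all tested genes. limma-trend called 2 higher and 1 lower, and the authors' deposited comparison 1 higher and 2 lower. The markers summed to 6656 to 7443 CPM in linc-4 and 6644 to 9296 CPM in wild type. The 9 epidermis markers summed to 1042 to 1135 CPM in linc-4 and 1119 to 1516 CPM in wild type, with a median log2 fold change of -0.13. By limma-voom 1 was higher and 0 lower, beside the same 11.5% and 7.18%. At an unadjusted p under 0.05, 2 were higher and 1 was lower. limma-trend also called 1 higher, and the authors' deposited comparison called 0. The part of the germline, sperm and muscle differences in the gpdh-1 result was not tested.

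gpdh-2 encodes another enzyme for the same step. It lies on chromosome III (9854077 to 9859183, - strand; WBGene00010778). Its level was 126, 99.1 and 94.1 CPM in linc-4 libraries, against 112, 103 and 117 CPM in wild type libraries. The groups overlapped, and the highest and the lowest value were both in linc-4 libraries. The log2 fold change was -0.07 (SE 0.15, 95% interval -0.39 to 0.25; limma-voom adjusted p = 0.77), and 0.040 with upper-quartile scaling, so a change of gpdh-2 as large as that of gpdh-1 lies outside its interval.

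The balance of the pair can be read within each library, where scaling between libraries plays no part. gpdh-1 made up 6.21%, 6.84% and 8.58% of the summed gpdh-1 and gpdh-2 reads in linc-4 1 to 3, against 2.25%, 1.31% and 2.11% in wild type 1 to 3. The lowest Wilson 95% bound among linc-4 libraries was 4.90%, and the highest bound among wild type libraries was 4.1%; these bounds cover counting error only and not the spread between libraries. gpdh-2 stayed the more abundant transcript in every library: per length, gpdh-1 stood at 7.79% to 11.05% of gpdh-2 in linc-4 and at 1.56% to 2.71% in wild type. The log2 ratio of gpdh-1 to gpdh-2 reads was -3.69 ± 0.256 in linc-4 and -5.67 ± 0.426 in wild type (SD, n = 3 each). The difference was 1.98, with p = 0.1 by a two-sided exact permutation test, the smallest p that 3 libraries against 3 allow. The sources used here do not say how reads that map to both genes were counted.

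**Figure D2:**
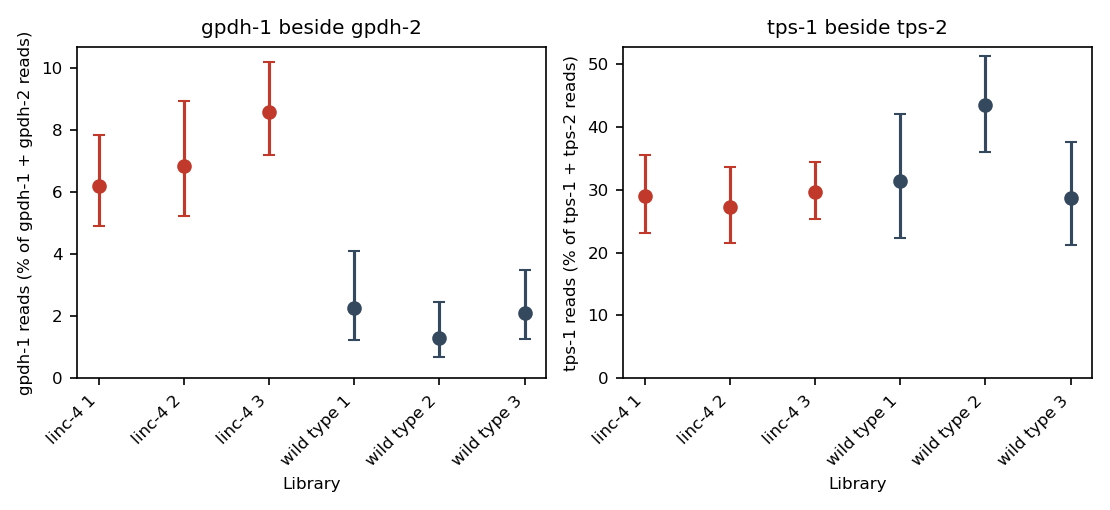
Reads of gpdh-1 as a percent of gpdh-1 and gpdh-2 reads together (left panel) and of tps-1 as a percent of tps-1 and tps-2 reads together (right panel) in each library (horizontal axis), with Wilson 95% intervals. The linc-4 libraries lie at 6.21% to 8.58% for gpdh-1 and the wild type libraries at 1.31% to 2.25%, while the tps-1 shares of the groups overlap.

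The step after GPDH was examined with a list of the surrounding pathway. Of 8 tested genes of glycerol phosphate metabolism 2 rose and 0 fell by limma-voom, gpdh-1 itself and pgph-3, beside 11.5% of all tested genes higher and 7.18% lower, and the median log2 fold change of the 8 was 0.27. pgph-3, on chromosome V (5762494 to 5763846, - strand; WBGene00016892), is annotated as a phosphoglycolate phosphatase homologue, and C. elegans proteins of this family are known to release glycerol from glycerol-3-phosphate. It had 38.9, 30.7 and 30.2 CPM in linc-4 libraries, against 8.23, 7.46 and 15.5 CPM in wild type libraries. The groups did not overlap, and wild type 3 was the highest of its group. pgph-3 rose 3.32-fold (log2 fold change 1.73, SE 0.24, limma-voom adjusted p = 0.00064). Its relative pgph-2 averaged 30.1 ± 6.27 CPM in linc-4 and 27.02 ± 9.98 CPM in wild type (SD, n = 3 each; limma-voom adjusted p = 0.64), and pgph-1 had no reads.

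The other tested genes of the list sit beside glycerol synthesis. R11F4.1, a probable glycerol kinase, an enzyme that returns glycerol to glycerol-3-phosphate, had a log2 fold change of 0.31 (SE 0.20, limma-voom adjusted p = 0.29). The aldolase genes aldo-1 and aldo-2 and the triosephosphate isomerase gene tpi-1, which supply dihydroxyacetone phosphate, had log2 fold changes of 0.26, -0.03 and 0.27, and none passed. gpdh-3 and gyk-1, also on the list, matched no gene name with counts.

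Trehalose genes came next. tps-2, 1 of a pair of trehalose-6-phosphate synthase genes, lies on chromosome II (14600902 to 14610554, + strand; WBGene00006603). It had 18.6, 22.3 and 20.6 CPM in linc-4 libraries, against 14.7, 13.7 and 14.8 CPM in wild type libraries. The groups did not overlap, but the log2 fold change of 0.50 (SE 0.17, 95% interval 0.14 to 0.87) missed the threshold with a limma-voom adjusted p = 0.052. It passed with upper-quartile scaling (adjusted p = 0.022), with library quality weights (0.038) and by limma-trend (0.0499), and missed in each of 6 fits that left a library out (0.068 to 0.16). In the authors' deposited table its adjusted p is 0.13. tps-2 shares 24 exonic bases with arl-3 on the same strand, which had 33 reads in all linc-4 and 15 in all wild type libraries.

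tps-1, the other synthase gene, lies on chromosome X (17467121 to 17474585, - strand; WBGene00006602). It had 7.55, 8.32 and 8.68 CPM in linc-4 libraries, against 6.69, 10.5 and 5.95 CPM in wild type libraries. Wild type 2 was the highest library of all and wild type 3 the lowest, so the groups overlapped. The log2 fold change was 0.10 (SE 0.23, 95% interval -0.41 to 0.60; limma-voom adjusted p = 0.80). The log2 ratio of tps-1 to tps-2 reads within a library was -1.32 ± 0.0870 in linc-4 and -0.93 ± 0.487 in wild type (SD, n = 3 each; p = 0.3, two-sided exact permutation test). That difference of -0.38 was set mostly by wild type 2, without which it was -0.11.

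None of the 8 tested genes of trehalose metabolism passed by limma-voom (median log2 fold change 0.06), beside 18.7% of all tested genes in either direction. Only tps-2 had an unadjusted p under 0.05. limma-trend called that 1, and none passed in the authors' deposited comparison. gob-1, the trehalose-6-phosphate phosphatase gene that completes synthesis, averaged 9.68 ± 2.12 CPM in linc-4 and 11.5 ± 6.80 CPM in wild type (SD, n = 3 each). The 5 trehalase genes, which split trehalose, had log2 fold changes from -0.33 for tre-1 to 0.63 for tre-5.

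hmit-1.1 encodes a transporter that brings myo-inositol into the cell together with protons and is known to be induced by high salt. It lies on chromosome V (18516789 to 18523875, + strand; WBGene00013073). It had 6.40, 5.79 and 5.41 CPM in linc-4 libraries, against 5.91, 3.20 and 4.87 CPM in wild type libraries. The linc-4 values lay close together, and wild type 1 lay among them. The log2 fold change was 0.40 (SE 0.26, 95% interval -0.16 to 0.96; limma-voom adjusted p = 0.29).

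Of 5 tested inositol genes 1 rose and 0 fell by limma-voom, beside 11.5% and 7.18% of all tested genes, and the median log2 fold change was 0.40. The gene that rose was hmit-1.3, a further member of the transporter family on chromosome III (3510964 to 3519607, - strand; WBGene00010811). It had 23.7, 23.9 and 19.8 CPM in linc-4 libraries, against 10.03, 12.3 and 14.8 CPM in wild type libraries, with no overlap. hmit-1.3 rose 1.78-fold (log2 fold change 0.84, SE 0.19, limma-voom adjusted p = 0.011). The call was lost without linc-4 2 (adjusted p = 0.0501). hmit-1.3 shares 51 exonic bases with mrpl-35 on the opposite strand, which had 1776 reads in linc-4 and 1000 in wild type. hmit-1.2 averaged 2.27 ± 0.481 CPM in linc-4 and 1.57 ± 0.218 CPM in wild type (SD, n = 3 each; limma-voom adjusted p = 0.28).

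Proteins that hold the response down were examined through osm-8, osm-11 and osr-1. osm-11 encodes a secreted protein that acts with Notch receptors and lies on chromosome X (17420211 to 17421582, - strand; WBGene00003891). It had 54.9, 50.2 and 49.1 CPM in linc-4 libraries, against 58.1, 64.8 and 72.3 CPM in wild type libraries. Every linc-4 library was below every wild type library. The log2 fold change was -0.34 (SE 0.14, 95% interval -0.65 to -0.03), with an unadjusted p of 0.033 and an adjusted p of 0.11 by limma-voom, so it did not pass. osm-11 shares 5 exonic bases with the non-coding F11C7.9 on the opposite strand.

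osm-8 encodes a secreted mucin-like protein of the epidermis and lies on chromosome II (7604193 to 7605401, - strand; WBGene00003888). It was the member with the fewest reads, 13, 19 and 39 in linc-4 and 3, 19 and 10 in wild type. Its level was 1.66, 2.82 and 2.97 CPM in linc-4 libraries, against 0.771, 2.89 and 1.80 CPM in wild type libraries. The groups overlapped widely, and the log2 fold change of 0.45 had a 95% interval from -0.45 to 1.36 (SE 0.42, limma-voom adjusted p = 0.47). The upper end of that interval is a 2.56-fold rise. npp-21, a nuclear pore gene on the opposite strand that overlaps osm-8 with no shared exonic base, fell to 42.0 ± 4.44 CPM in linc-4, against 58.3 ± 0.745 CPM in wild type (SD, n = 3 each; limma-voom adjusted p = 0.034).

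osr-1, whose loss is known to make worms tolerate high salt, lies on chromosome I (5200258 to 5203504, - strand; WBGene00016329). It had 6.79, 5.64 and 5.48 CPM in linc-4 libraries, against 4.89, 6.09 and 4.87 CPM in wild type libraries. Wild type 2 stood within the linc-4 range. The log2 fold change was 0.14 (SE 0.23, 95% interval -0.35 to 0.63; limma-voom adjusted p = 0.70). osr-1 shares 5 exonic bases with pde-5 on the opposite strand, which had 15 reads in all linc-4 and 6 in all wild type libraries.

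Counted together, 1 of the 8 genes was higher, where 11.5% of all tested genes were higher, and 0 of 8 were lower, where 7.18% of all were lower. Over all tested genes that is 1591 higher and 989 lower, against 2065 and 476 with upper-quartile scaling. That scaling shifts the median log2 fold change of all genes by 0.11. At an unadjusted p under 0.05, 2 were higher and 1 was lower; limma-trend called 2 higher and 0 lower, and the authors' deposited comparison called 1 and 0. Every linc-4 value was above every wild type value for 2 of the 8, gpdh-1 and tps-2, as for 21.2% of all tested genes, and below for 1, osm-11, as for 17.7% of all, which makes 3 of 8 beside 38.9% with no overlap in either direction. The median log2 fold change of the 8 was 0.27, beside -0.01 over all tested genes, and 6 of 8 were above 0 beside 48.8% of all. The share called was near that of all tested genes, and the 6 values above 0 are mostly of genes that did not pass.

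**Figure D3:**
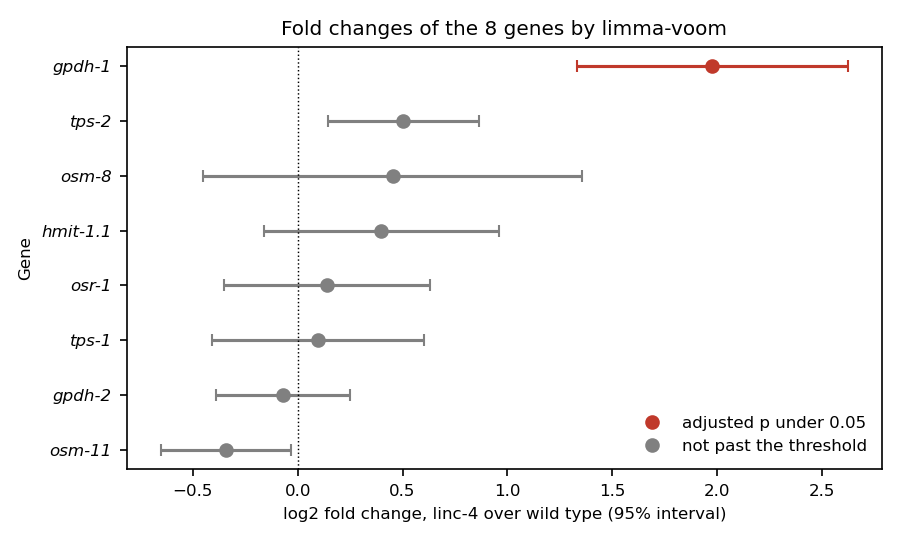
log2 fold change of linc-4 over wild type (horizontal axis) of the 8 genes (vertical axis) with 95% intervals from limma-voom; red marks an adjusted p under 0.05. gpdh-1 alone of the 8 is past the threshold, at 1.98, and the intervals of tps-2 and osm-11 leave out 0 although neither passed after adjustment.

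Compared per length, gpdh-2 and osm-11 were the abundant members in both groups. gpdh-2 stood at 69.0 ± 11.04 CPM per kilobase of exon in linc-4 and 72.0 ± 4.59 in wild type, and osm-11 at 43.5 ± 2.62 in linc-4 and 55.1 ± 6.03 in wild type (SD, n = 3 each). The other 6 genes lay between 1.88 and 6.23 CPM per kilobase on average in linc-4 and between 1.56 and 3.75 in wild type. In linc-4, gpdh-1 was the third most abundant at 6.23 ± 0.605 CPM per kilobase, and its range overlapped that of tps-2 at 5.34 ± 0.485. In wild type, gpdh-1 was the seventh at 1.65 ± 0.520 CPM per kilobase, and its range overlapped those of its neighbours tps-1 and osm-8. Among other neighbours in this order, the pairs osr-1 and hmit-1.1, in both groups, osm-8 and tps-1, in linc-4, and hmit-1.1 and tps-1, in wild type, overlapped. Beyond neighbours, the wild type range of osm-8, 0.661 to 2.48, also reached those of tps-1, hmit-1.1 and osr-1. The wild type range of gpdh-1 likewise reached that of hmit-1.1, so the lower places in wild type, including that of gpdh-1, are only loosely set.

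Regulators of the response on a wider list showed no call. Of 16 tested genes, with a median log2 fold change of -0.09, none passed by limma-voom, limma-trend or in the authors' deposited comparison, and 2 had an unadjusted p under 0.05, both lower: osm-11 and daf-16, the insulin-regulated transcription factor gene. Among all tested genes limma-voom called 18.7% in either direction. The log2 fold changes ran from -0.51 for clh-3, a chloride channel gene, to 0.45 for osm-8. osm-7, a relative of osm-11 with a like role, averaged 18.1 ± 2.06 CPM in linc-4 and 16.95 ± 4.47 CPM in wild type. ptr-23, a patched-related gene needed for gpdh-1 activation in osm-8 mutants, averaged 9.77 ± 1.43 CPM in linc-4 and 9.22 ± 3.15 CPM in wild type (SD, n = 3 each). elt-2 and elt-3, GATA factor genes of the intestine and epidermis, had log2 fold changes of -0.07 and -0.14. The O-GlcNAc transferase gene ogt-1, needed for full GPDH-1 induction, had a log2 fold change of 0.10.

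Loss of the collagens of the annular furrows of the cuticle is known to turn gpdh-1 on. Of 6 such genes, dpy-2, dpy-3, dpy-7, dpy-8, dpy-9 and dpy-10, none passed by limma-voom, by limma-trend or in the authors' deposited comparison, and none had an unadjusted p under 0.05. Their log2 fold changes ran from -0.05 for dpy-3 to 0.37 for dpy-9. The share of all tested genes called by limma-voom in either direction was 18.7%.

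Among 12 tested of 19 listed Notch ligand, receptor and effector genes, the setting in which OSM-11 is known to act, 2 fell and 0 rose by limma-voom, beside 7.18% and 11.5% of all tested genes (median log2 fold change -0.36). At an unadjusted p under 0.05, 4 were lower and 0 higher. limma-trend also called 2 lower, and the authors' deposited comparison 1. The listed genes dos-3, lag-2, arg-1, dsl-1, dsl-4, dsl-5 and sel-8 did not pass the filter on low counts and were not tested. lag-1, the DNA-binding effector of the pathway, fell to 7.30, 7.58 and 9.36 CPM in linc-4 libraries, against 15.9, 12.6 and 12.3 CPM in wild type libraries (log2 fold change -0.71, SE 0.20, limma-voom adjusted p = 0.026). dsl-6, a Delta-like gene, fell to 1.15, 0.743 and 0.990 CPM in linc-4, against 2.06, 1.98 and 2.35 CPM in wild type (log2 fold change -1.12, SE 0.35, limma-voom adjusted p = 0.040). Every linc-4 library lay below the level set by the filter on low counts. dsl-6 thus entered the test only through wild type, the group where it is higher, and it was not called with no filter. Leaving out linc-4 1, linc-4 2 or wild type 1 ended the lag-1 call (adjusted p up to 0.11). The lag-1 call was also lost with upper-quartile scaling and with a replicate block (limma-voom adjusted p = 0.0511 with the block). Leaving out any of the 6 libraries ended the dsl-6 call (up to 0.14), and the authors' deposited table gives it an adjusted p of 0.18. lag-1 shares 9 exonic bases with M03D4.3 on the opposite strand, which rose 2.29-fold (limma-voom adjusted p = 0.011), and more with antisense non-coding transcripts for which no counts were used here. glp-1, the Notch receptor gene of the germline, had a log2 fold change of -0.37 and lin-12 one of -0.57, and neither passed; germline markers were lower in the same libraries, and their part in these values was not tested.

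Osmotic avoidance behaviour, a sensory response that gave the osm genes their name, uses other genes, in ciliated neurons. Only 3 of 10 listed genes had enough reads to be tested, osm-1, osm-3 and ocr-2, with log2 fold changes of 0.32, 0.02 and -0.30. None passed by limma-voom, by limma-trend or in the authors' deposited comparison, and none had an unadjusted p under 0.05. By limma-voom 18.7% of all tested genes were called in either direction.

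**Figure D4:**
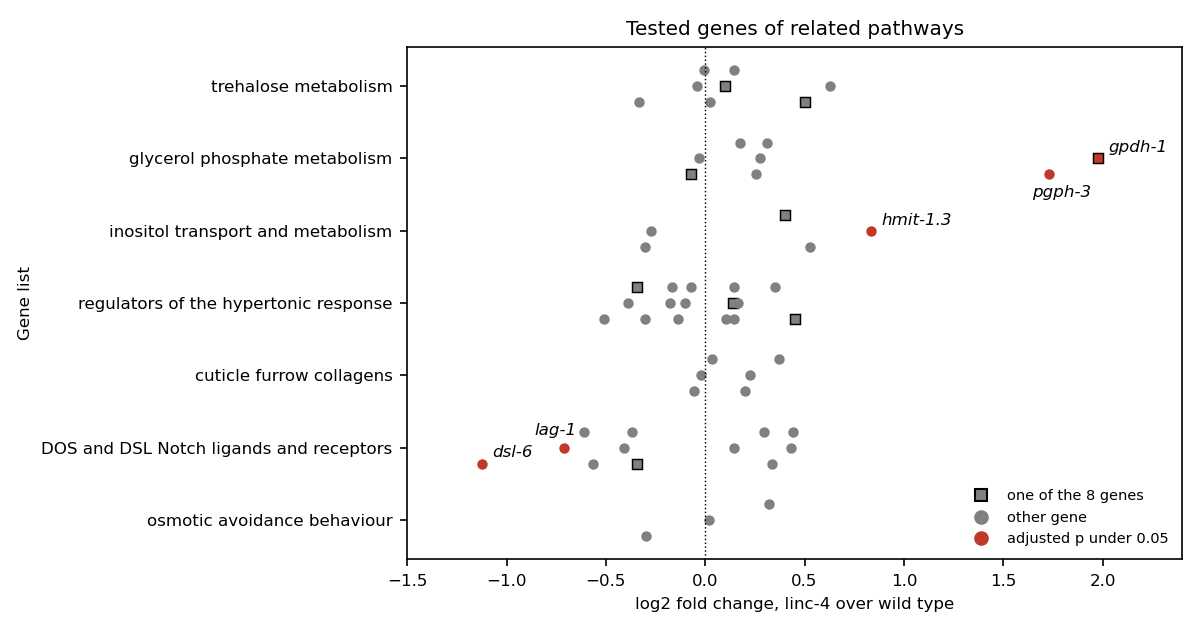
log2 fold change of linc-4 over wild type (horizontal axis) of each tested gene of 7 related gene lists (vertical axis; points are spread vertically for legibility); squares are the 8 genes, circles other genes, and red marks an adjusted p under 0.05 by limma-voom. gpdh-1 at 1.98, pgph-3 at 1.73 and hmit-1.3 at 0.84 are the red points above 0, and dsl-6 at -1.12 and lag-1 at -0.71 those below 0.

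The genes with a profile most like gpdh-1 over the 6 libraries were sought among 9104 tested genes averaging 50 counts or more, by the root mean square difference of log2(CPM + 1) centred on each gene. The nearest was ftn-1, a ferritin gene, at a difference of 0.149. It had 20.6, 16.2 and 19.03 CPM in linc-4 libraries, against 5.66, 3.96 and 4.87 CPM in wild type libraries. The next was catp-3, a gene of the sodium and potassium pump family, also at 0.149, with 13.1, 12.9 and 12.3 CPM in linc-4 libraries, against 3.86, 3.20 and 3.97 CPM in wild type libraries. In all 3 genes wild type 2 was the lowest library, a likeness that the choice by profile favours. The step between the groups enters this measure, so genes with a similar step in log2(CPM + 1) rank as alike. The added 1 shrinks the step of a gene at a low level. On this scale the step of gpdh-1 was 1.56 by limma-trend, against 1.98 by limma-voom.

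The gpdh-1 call held whichever of the 6 libraries was left out, with adjusted p from 0.0022 to 0.0068 and a fold from 3.10, without wild type 2, to 4.42, without wild type 3. It also held in the other settings tried, with adjusted p of 0.0015 or less.

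**Figure D5:**
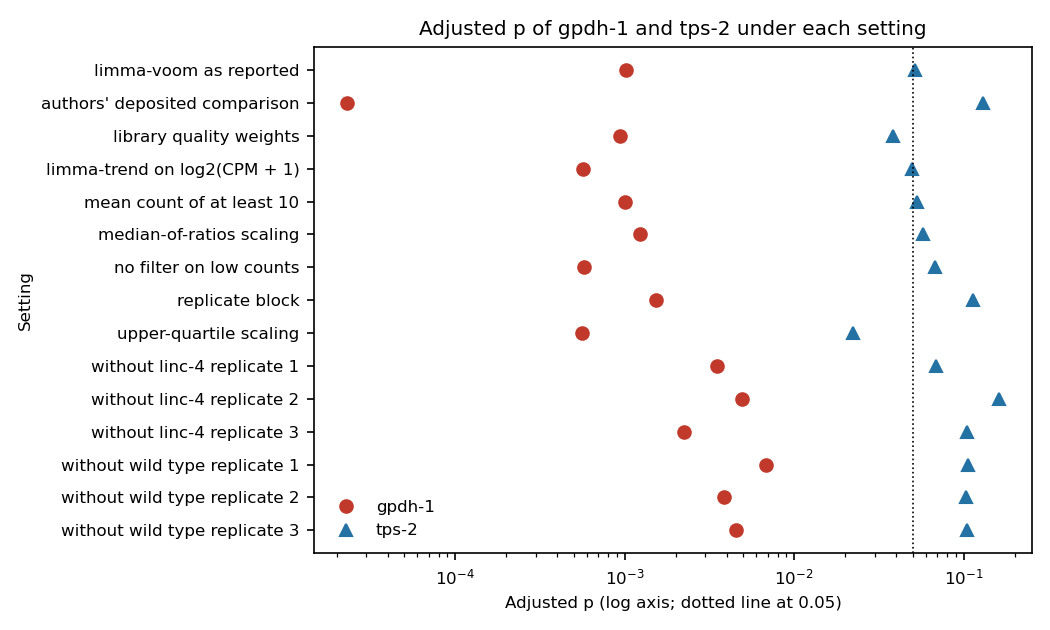
Adjusted p (horizontal log axis; dotted line at 0.05) of gpdh-1 (circles) and tps-2 (triangles) under each setting (vertical axis). All gpdh-1 points lie left of the line, at 0.0068 or less, while tps-2 lies on both sides of it, from 0.022 to 0.16.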

How the data were processed

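Polyadenylated RNA of adult worms was sequenced in 3 linc-4 and 3 wild type libraries. Per the submitters' processing notes, the authors' tools were DESeq2 1.22.2, HTSeq 0.12.4, TopHat2 2.1.1 and cutadapt 2.10, and the build was WBcel235; the sources used here do not give settings, strandedness or the handling of shared reads. The authors' deposited table holds raw whole-number counts, counts divided by 1 size factor per library, and the authors' own comparison (log2 fold change, standard error, p-value and adjusted p-value). A question mark stands for no value in 24515 of 46904 rows. Because of it the columns could not be registered as counts here, so count-model packages were not used and limma-voom was used instead. That was a limit of the handling, since every row with raw counts holds whole numbers. The alternatives tried were other scalings and filters, a replicate block, limma-trend, library quality weights and each library left out. Chi-square per degree of freedom between libraries of 1 group was 5.33 to 22.0, so no library was a repeat of another. The labels do not say that libraries are separate cultures, so p-values measure only the spread between these libraries.

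A gene was tested where 3 libraries (2 where a group had lost 1) reached the CPM worth 10 reads in a library of median size and all libraries together held 15 reads, which left 13778 genes. Libraries were scaled by the trimmed mean of M values. limma 3.58.1 in R 4.3.3 gave two-sided tests, with Benjamini-Hochberg adjustment over all tested genes and a threshold of 0.05. Ratios within a library had 0.5 added to each count. A floor of 3 reads stood for 0.803 CPM before composition scaling in the shallowest library and 0.235 CPM in the deepest. Exon lengths and overlaps are from Ensembl release 115; positions and names are those of the deposited table. The procedure was tested on simulated counts with the same spread setting for every gene and few genes changed. That setting is simpler than these libraries, so it does not show how the tests behave on them. Members and lists were chosen with earlier results of these data known, so counts of calls among them are descriptive and no independent test. Named genes are linc-4, the 8 members, overlapping genes, list genes past the threshold and the 2 nearest profiles of each member that passed; other list genes are named for their role in the pathway. No sequences are shown, and the planned search for promoter motifs was not run, since the reference used here holds an annotation only.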

Additional observations from a re-analysis of the deposited data

How the results depend on the processing

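Scaling, filters, a replicate block, limma-trend, library quality weights, the authors' deposited comparison and leaving out each library were tried. gpdh-1 kept its direction and its call in every one; with 1 library left out its log2 fold change was 1.63 to 2.14. tps-2 moved past the threshold in 3 settings, with log2 fold changes of 0.62 with upper-quartile scaling, 0.52 with quality weights and 0.48 by limma-trend, and the number of members higher was then 2; the cause was not tested. With 1 library left out it was 0.46 to 0.57, and 1 member was higher and 0 lower throughout. gpdh-2, near 0, changed sign with upper-quartile scaling (0.040) and without linc-4 3 (0.014), and spanned -0.19 to 0.014 with 1 library left out. The ranges were -0.093 to 0.37 for tps-1, whose sign changed without wild type 3, 0.11 to 0.56 for hmit-1.1, 0.07 to 0.87 for osm-8, -0.42 to -0.27 for osm-11 and 0.06 to 0.25 for osr-1. The log2 ratio difference was 1.74 to 2.14 for gpdh-1 over gpdh-2 and -0.57 to -0.11 for tps-1 over tps-2.

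Over all genes, 1591 were higher and 989 lower. The lower count was 476 with upper-quartile scaling, beside 2065 higher, and 652 with no filter on low counts, where 21015 genes were tested. With 1 library left out the counts were 741 to 1607 higher and 189 to 1241 lower; the higher count moved by over 1.5 times without linc-4 2 (758), wild type 1 (741) or wild type 3 (945), and the lower count without linc-4 1 (523), linc-4 2 (189), wild type 1 (395) or wild type 3 (556). With a replicate block, 1210 were higher and 504 lower, and no call among the 8 genes changed (gpdh-1 1.90, adjusted p = 0.0015), while lag-1 (adjusted p = 0.0511) and dsl-6 were not called. The labels give shared replicate numbers, and the wild type titles also carry a further number, which differs for wild type 1 and wild type 2. Deviations of same-numbered libraries correlated at 0.0857, -0.0923 and -0.344. No linc-4 library correlated best with its own number, and of the wild type libraries only wild type 1 did. The highest correlation, 0.424, was between linc-4 3 and wild type 2. These values give no sign of pairing by number, but they cannot show whether cultures or preparations were shared. Few reads stood behind osm-8 (71 in linc-4, 32 in wild type), dsl-6 (27 and 34) and wild type gpdh-1 (33).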
